A study of Mus musculus with 16 samples.

Results

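The mammalian circadian clock is represented here by 10 of the 31053 genes in the count matrices of BTBR mouse kidneys: the activators Arntl and Npas2, the repressors Per1, Per2, Per3 and Ciart, the nuclear receptors Nr1d1 and Nr1d2, and the PAR bZIP transcription factors Dbp and Tef. They were given as a list of gene symbols, drawn up with earlier results of these data known, and all 10 were found. UMIs (unique molecular identifiers, each counting 1 captured transcript) were summed per library and per cell class and expressed as CPM, the UMIs of a gene scaled to a common total of UMIs per sum. Each of the 16 libraries came from the kidney tissue of 1 mouse. Control mice were BTBR wild type for Lep and DN (diabetic nephropathy) mice were BTBR ob/ob, which lack functional leptin, and both genotypes carried a membrane-targeted tdTomato/EGFP reporter together with a podocyte-specific Cre. Each genotype was sampled at 6 and at 12 weeks of age, with 2 females and 2 males per genotype and age. Per the labels, minced tissue without the papilla was warmed in collagenase at 37 °C, spun through Percoll to discard many proximal tubules, and only then dissociated with a protease that works in the cold. The labels do not give the time of day at which kidneys were taken, so the members are described by their levels and not by a clock time.

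In the clock, the product of Arntl pairs with that of Clock or Npas2 and switches on target genes through E-box elements. The Period proteins, with the cryptochromes and Ciart, inhibit this pair, while Nr1d1 and Nr1d2 repress Arntl through ROR elements and Dbp and Tef activate genes through D-box elements. In mouse kidney, as in liver, Dbp and Nr1d1 transcripts peak during the day and Arntl transcripts are out of phase with them, and the kidney clock is known for daily changes in tubular transport and blood pressure. Per1 and Per2 are also induced by glucocorticoids and by other acute signals.

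The control elements were looked up in RefSeq promoters (GRCm38.p6, 250 bases before to 50 bases after a transcription start site). The set of RefSeq promoters used here held 12 promoters for 9 of the 10 members and no entry for Per2. The search covered both strands. The E-box CACGTG was present in 4 promoters of 3 members (Ciart, Per1 and Tef) and in 7.15% of all 32851 promoters, the D-box TTATGTAA or TTACGTAA in 1 member promoter (Per3) and in 1.06% of all promoters, and the ROR element core TAGGTCA or TGGGTCA in 1 member promoter (Arntl) and in 6.45% of all promoters. The stretches that hold these motifs are shown because the named loops act through them, each 5′ to 3′ on the strand of its gene, with the motif in capitals, and bases of annotated exons were left out except around the matches of Tef and Arntl, which lie in the first annotated exon of their genes. A match is a description of letters, not of binding. The Ciart stretch (chr3:95882252-95882478, minus strand) held E-boxes that started 116, 58 and 44 bases before the start site. The E-box of Tef (chr15:81802534-81802563, plus strand) started 127 bases and that of Per1 (chr11:69098699-69098947, plus strand) 166 bases before it. Tef had 2 promoters with an E-box, and only the first is shown. In the second (chr15:81811164-81811463, plus strand) the E-box started 138 bases before the start site. The D-boxes of Per3 (chr4:151044666-151044915, minus strand) started 205 and 158 bases before the start site, and the ROR core of Arntl (chr7:113207530-113207559, plus strand) lay 31 bases into the transcript.
Ciart: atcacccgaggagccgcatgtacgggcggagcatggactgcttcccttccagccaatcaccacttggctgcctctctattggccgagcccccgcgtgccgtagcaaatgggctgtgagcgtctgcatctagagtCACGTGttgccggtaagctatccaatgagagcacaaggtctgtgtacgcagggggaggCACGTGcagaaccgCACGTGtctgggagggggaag
Tef: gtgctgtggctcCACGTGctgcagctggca
Per1: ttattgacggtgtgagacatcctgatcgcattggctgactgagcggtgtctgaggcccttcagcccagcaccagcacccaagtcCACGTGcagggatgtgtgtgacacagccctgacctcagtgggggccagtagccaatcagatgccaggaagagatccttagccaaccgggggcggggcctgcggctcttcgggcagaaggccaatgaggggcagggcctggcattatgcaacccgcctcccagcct
Per3: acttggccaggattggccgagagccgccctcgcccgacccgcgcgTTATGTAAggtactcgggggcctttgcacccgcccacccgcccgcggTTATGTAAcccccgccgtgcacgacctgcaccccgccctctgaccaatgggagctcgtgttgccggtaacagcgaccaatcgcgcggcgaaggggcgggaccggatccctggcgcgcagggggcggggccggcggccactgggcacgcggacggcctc
Arntl: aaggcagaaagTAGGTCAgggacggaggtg

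Replicate 1 of each female group stood apart in depth: these 4 libraries held 10510855 to 21728793 UMIs, against 83410397 to 125551519 in the other 12. Among the other 12, control male 6 weeks replicate 2 had the lowest median of all 16 libraries before filtering, 698 UMIs per barcode over 10879 barcodes. Pairs of the 4 shallower libraries shared 0.60% to 1.43% of their cell barcodes and pairs of the 12 deeper ones 0.11% to 0.39%. Between the 2 sets the share was only 0% to 0.06%, so the sets differed in more than depth. Of 116439 barcodes, 86405 passed all filters and 72269 fell into 16 classes named from marker genes, so the class names are written as PT-like (proximal tubule), dLOH-like and aLOH-like (descending and ascending limb of the loop of Henle), DCT-like and CNT-like (distal convoluted and connecting tubule), PC-like (principal cell), IC-A-like and IC-B-like (intercalated cells), EC-like (endothelial) and so on, and the other 14136 barcodes were left unnamed. The lowest number of UMIs of a member in all kept cells of a library was 5. Several members overlap a gene on the opposite strand (Dbp with Sphk2, Nr1d1 with Thra, Arntl with Gm45355, Npas2 with Gm20428, Tef with Gm17597 and Ciart with C920021L13Rik), and the use of strand in counting was not given in the sources used here, so a share of their counts could belong to the partner. Over the 16 libraries, Sphk2 ranged from 14.2 to 26.5 CPM and Thra from 41.7 to 95.9 CPM. Per3 and Npas2 also overlap a gene on their own strand (Camta1 and Gm3617).

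Levels over all kept cells of a library differed widely between mice of the same genotype and age. Such a level also depends on the mix of classes, of which PT-like cells made up 10.7% to 35.4%. Values are given in the order female replicate 1, female replicate 2, male replicate 1 and male replicate 2. Dbp, the PAR bZIP output gene, was measured at 82.4, 11.7, 20.8 and 37.4 CPM in controls at 6 weeks and at 139, 56.1, 150.1 and 58.8 CPM in controls at 12 weeks. In DN kidneys it stood at 28.3, 10.8, 130.0 and 14.4 CPM at 6 weeks and at 75.6, 35.3, 85.5 and 15.3 CPM at 12 weeks. The high and low libraries of Dbp were spread over both genotypes and both ages, and every group overlapped the others. The range over the 16 libraries was 10.8 to 150.1 CPM, a 14.0-fold span. Between the replicates of the 8 groups of genotype, sex and age, Dbp differed by 1.80-fold to 9.03-fold, with a median of 2.59-fold, and it was higher in replicate 1 in 7 of the 8 groups. Since the labels give no harvest time or order, what the replicate numbers stand for is not known here.

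Arntl, which encodes the activator BMAL1, was lowest in a library in which Dbp was high. It was measured at 12.5, 20.7, 19.4 and 12.8 CPM in controls at 6 weeks and at 7.84, 10.9, 4.35 and 9.86 CPM in controls at 12 weeks. In DN kidneys it was at 18.8, 17.6, 2.46 and 16.8 CPM at 6 weeks and at 6.98, 9.93, 5.48 and 12.3 CPM at 12 weeks. The lowest Arntl value of the series, 2.46 CPM, was in DN male 6 weeks replicate 1, whose Dbp was the highest of its group, and the highest, 20.7 CPM, was in control female 6 weeks replicate 2, whose Dbp was the lowest of its group. Npas2, the paralogue of Clock that also pairs with Arntl, ranged from 0.339 to 5.89 CPM, with its lowest value in the same DN male library as Arntl.

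The repressors did not share 1 order of libraries. Per3 ranged from 7.05 to 36.9 CPM and Per2 from 2.13 to 13.9 CPM, both highest in DN male 6 weeks replicate 1. Per1, a Period gene that is also induced by acute signals, ranged from 8.11 to 24.0 CPM, and its highest value was in DN female 6 weeks replicate 2, in which Dbp was at its lowest of all libraries. Ciart, an inhibitor of the Arntl and Clock pair, ranged from 0.287 to 10.1 CPM, and its highest value, in the shallow control female 6 weeks replicate 1, was 10.1 CPM against 0.363, 0.287 and 0.859 CPM in the other 3 controls at 6 weeks.

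The nuclear receptors and Tef spanned less than Dbp. Nr1d1, which encodes the heme-binding repressor REV-ERB alpha, was measured at 53.2, 26.2, 29.4 and 60.2 CPM in controls at 6 weeks and at 57.3, 48.7, 80.7 and 64.0 CPM in controls at 12 weeks. In DN kidneys Nr1d1 was at 32.5, 28.4, 44.2 and 37.2 CPM at 6 weeks and at 47.1, 29.0, 38.5 and 31.3 CPM at 12 weeks. All 4 DN values at 12 weeks lay below all 4 control values of that age. Nr1d2, its paralogue REV-ERB beta, ranged from 19.4 to 56.9 CPM, and Tef, a PAR bZIP factor like Dbp, from 20.5 to 82.9 CPM.

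**Figure D1:**
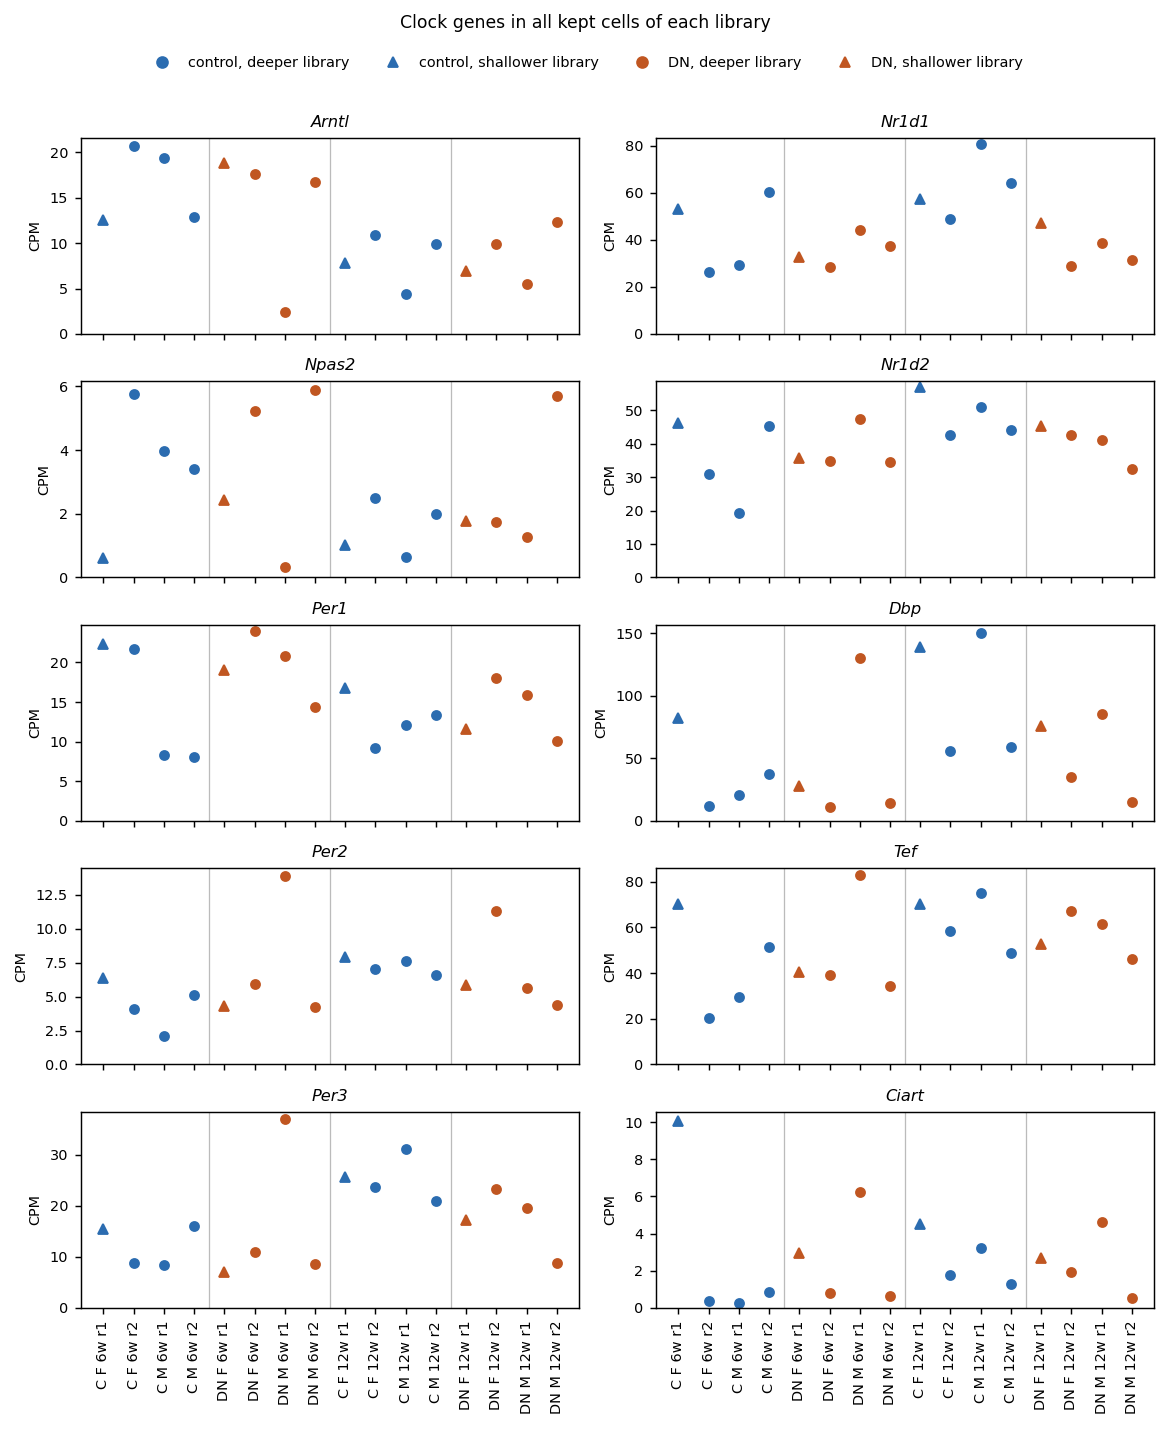
Each panel plots 1 clock gene, with its CPM over all kept cells on the y axis (linear, from 0) and 1 point per library on the x axis (C control, F female, M male, w weeks, r replicate), in blue for control and orange for DN, with triangles for the 4 shallower libraries. Dbp spans 10.8 to 150.1 CPM and Arntl 2.46 to 20.7 CPM, and the points of every genotype and age group of Dbp overlap those of the others.

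Whether the cell classes of a library moved together was described over the 12 classes that had at least 10 cells in all 16 libraries, which gave 192 sums. For each class, the log2(CPM + 1) of a gene was centred on the mean of that class, and the part of the remaining variance that lay between libraries, and not between the classes of a library, was computed. This library share was 71.0% for Dbp, 57.5% for Tef, 54.7% for Per3, 52.6% for Arntl and 51.2% for Npas2. It was 44.8% for Nr1d2, 43.4% for Per2, 41.7% for Nr1d1, 32.9% for Per1 and 29.0% for Ciart. The median of the 10 members was 48.0%, against 20.1% over 14712 genes tested and 26.5% over the 9253 genes with a mean of at least 10 CPM. Among those 9253 genes the 90th percentile was 59.8%, and 476 genes (5.14%) had a higher share than Dbp. Of the part between libraries, the percentage that lay between the 8 groups of genotype, sex and age, and not between replicates, was 68.4% for Per1, 53.7% for Nr1d1, 53.1% for Per3, 43.9% for Dbp, 41.5% for Nr1d2, 34.9% for Per2, 34.1% for Tef, 31.1% for Arntl, 26.0% for Ciart and 23.2% for Npas2, beside a median of 34.5% for the 9253 genes. With 2 libraries in a group, such a percentage is well above 0 also where the groups do not differ, so no group difference is read from it. Npas2, Per2 and Ciart had means under 10 CPM, where counting error takes a larger part of the variance. The classes of a library share its depth and its free RNA, whose part in the share was not tested, and no p-value was computed.

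**Figure D2:**
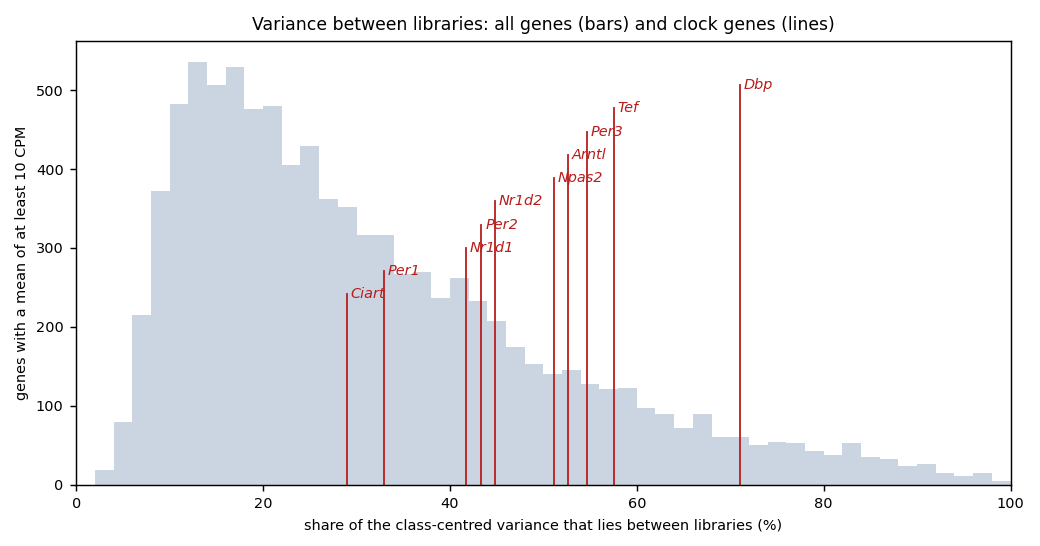
The histogram counts the 9253 genes with a mean of at least 10 CPM (y axis) by the percentage of their class-centred variance that lay between libraries (x axis), and the vertical lines mark the clock genes, their heights having no meaning. The line of Dbp is at 71.0%, and the median of the histogram is 26.5%.

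Counted class by class, Dbp was above the median of the class in all 12 classes in control female 12 weeks replicate 1 and in control male 12 weeks replicate 1, and in 11 classes in control female 6 weeks replicate 1, DN female 12 weeks replicate 1 and DN male 6 weeks replicate 1. It was above the median in 0 of the 12 classes in control female 6 weeks replicate 2, DN female 6 weeks replicate 2 and DN male 6 weeks replicate 2. At least 10 classes were above in 6 libraries, at most 2 classes in 6 libraries, and 3 to 9 in the other 4. The classes were not all on 1 side in most libraries: in DN male 12 weeks replicate 2, which had 2 classes above, Dbp in immune-like cells lay 0.87 above its class mean on the log2 scale, while it lay at −1.26 in mesangial-like and −1.85 in glomerular EC-like cells. In IC-B-like cells it lay 0.33 above. The immune-like class held only 859 cells over all libraries and Dbp was at 0 CPM in some of them, so counting error can be large there. Arntl was above its class median in 12 of 12 classes in control female 6 weeks replicate 2, control male 6 weeks replicate 1 and DN male 6 weeks replicate 2. It was above in 0 classes in control female 12 weeks replicate 1 and control male 12 weeks replicate 1, the libraries with all 12 classes above for Dbp. Tef was above in all 12 classes in control male 12 weeks replicate 1 and DN male 6 weeks replicate 1, and in 0 classes in 4 libraries. For Per1, as for Tef, 3 libraries had at least 10 classes above, 5 had at most 2, and 8 lay between.

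Taking the mean over the 12 classes for each library, the sides of the median were compared between members. Tef lay on the same side as Dbp in 16 of 16 libraries, Nr1d2 and Ciart in 14, and Per2, Per3 and Nr1d1 in 12. Per1 lay on the same side as Dbp in 4 libraries, Npas2 in 2 and Arntl in 0. In the 12 deeper libraries alone, Tef and Per3 shared the side of Dbp in 12, Nr1d1, Nr1d2 and Ciart in 10, Per2 in 8, Per1 in 4, Npas2 in 2 and Arntl in 0. Within age, each compared with the median of the 8 libraries of that age, Arntl shared the side of Dbp in 0 of 8 libraries at 6 weeks and in 2 of 8 at 12 weeks, and Tef in 8 of 8 at both ages. The activators were therefore high where the D-box factors were low, as a count over libraries with no test. The correlations of the 192 class-centred sums, in which sums of 1 library share its depth, were 0.80 for Dbp with Tef, 0.67 with Per3 and with Nr1d2, 0.52 with Nr1d1, 0.50 with Ciart, 0.36 with Per2, −0.05 with Per1, −0.65 with Npas2 and −0.67 with Arntl.

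**Figure D3:**
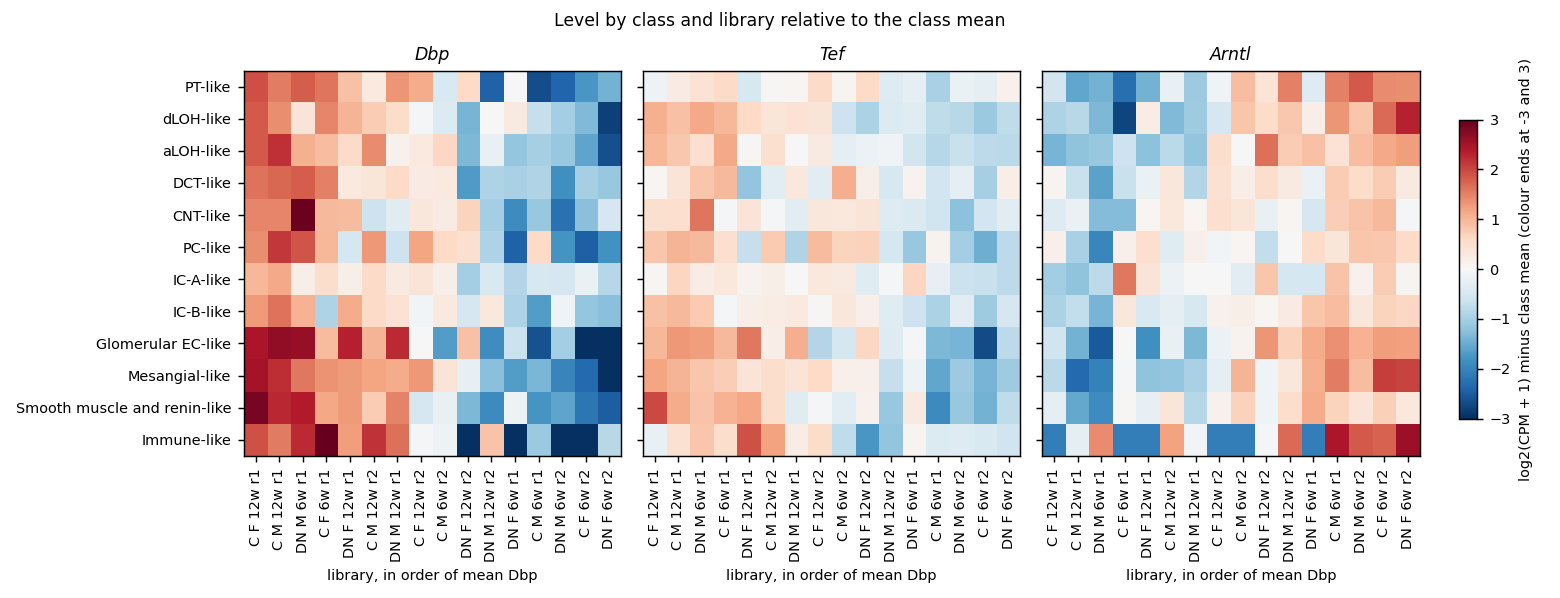
The maps show the class-centred log2(CPM + 1) of Dbp, Tef and Arntl in the 12 complete cell classes (y axis) of the 16 libraries (x axis, ordered by mean Dbp in all 3 maps), with red above and blue below the class mean and colours ending at −3 and 3. Columns of Dbp are red or blue over nearly all classes at both ends, with 12 of 12 classes above the class median in 2 libraries and 0 of 12 in 3 libraries, and Arntl is mostly blue where Dbp is red.

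The most similar genes outside the members were named by a fixed rule, the 10 highest correlations with Dbp, and the 10 with Arntl, over the 192 class-centred sums among genes with a mean of at least 10 CPM. For Dbp they were Tef, Nr1d2 and Per3, then Tspan4 (0.62), Bhlhe41 (0.58), which encodes a repressor that binds E-boxes, Prdx2 (0.53), Nr1d1, Naxe (0.52), Mpc1 (0.52) and Cuta (0.51). For Arntl they were Leo1 (0.52), Ssr3 (0.51), Hexim1 (0.50), Tab2 (0.50), Cpeb4, Atxn2l, Atn1, Clock, Ctnnd1 and 2510009E07Rik. Clock, the partner of Arntl, ranged over the libraries only from 38.6 to 63.0 CPM.

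The same counts were made for other measures of the libraries. The summed CPM of 12 other core clock genes lay on the same side of its median as Dbp in 6 of 16 libraries, that of 14 clock output genes in 8, of 18 immediate early genes in 10, of 10 glucocorticoid response genes in 10, of 8 heat shock genes in 10 and of 5 red blood cell genes in 8, and the number of UMIs in 6. A sum can hide genes that move apart: over the 192 class-centred sums the correlation with Dbp was −0.45 for Clock and 0.58 for Bhlhe41. The count for the other core clock genes thus does not tell whether single genes among them followed Dbp. The glucocorticoid-induced genes Fkbp5 and Tsc22d3 ranged from 12.5 to 98.5 CPM and from 13.8 to 257 CPM. Per1, which glucocorticoids induce, lay on the same side as the summed glucocorticoid response genes in 10 of 16 libraries. It shared the side of the immediate early genes in 8 and of the summed other core clock genes in 14. Per2 shared the side of the glucocorticoid response genes in 12 libraries and of the other core clock genes in 8. What lay behind these counts was not tested.

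The classes also differed in level, in the mean over libraries. Dbp was highest in mesangial-like cells at 203 ± 187 CPM (SD, n = 16), followed by dLOH-like cells at 159 ± 117 CPM (n = 16) and glomerular EC-like cells at 124 ± 130 CPM (n = 16), and lowest in DCT-like cells at 11.5 ± 10.3 CPM (n = 16). Neighbours in this order did not differ beyond their SDs. Within libraries the order was steadier: dLOH-like cells were above the level of all kept cells in 16 of 16 libraries, with a median ratio of 3.12, mesangial-like cells in 15 of 16, with a median ratio of 2.94, and DCT-like cells in 0 of 16, with a median ratio of 0.187.

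Tef was highest in PT-like cells at 96.2 ± 28 CPM (n = 16), which stood above all kept cells in 16 of 16 libraries, and lowest in immune-like cells at 15.5 ± 11.7 CPM (n = 16). Nr1d1 was highest in dLOH-like cells at 112 ± 50.2 CPM and mesangial-like cells at 109 ± 40.5 CPM (n = 16 each), and lowest in immune-like cells at 9.63 ± 7.08 CPM. Nr1d2 was highest in mesangial-like cells at 95.4 ± 31.5 CPM against 59.9 ± 20.5 CPM in the next class, dLOH-like, and this was the only pair of neighbours in the order of any member that differed by at least the larger of their SDs. Both receptors had their highest means in the classes with the highest means of Dbp.

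Per3 was highest in dLOH-like cells at 43.6 ± 22.5 CPM and lowest in DCT-like cells at 5.53 ± 3.75 CPM (n = 16 each). Per2 was also highest in dLOH-like cells, at 13.2 ± 6.94 CPM, and lowest in immune-like cells at 0.601 ± 1.32 CPM. Per1 was highest in podocyte-like cells at 37.1 ± 17 CPM (n = 15) and mesangial-like cells at 34.0 ± 13.6 CPM (n = 16), and lowest in PT-like cells at 9.79 ± 7.05 CPM (n = 16). For each Period gene, neighbours in the order of classes did not differ beyond their SDs. Ciart had its highest mean in PT-like cells, 6.22 ± 11.1 CPM, with an SD above the mean, and its lowest in DCT-like cells, 0.198 ± 0.377 CPM.

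Arntl was highest in vessels: 43.8 ± 32.5 CPM in peritubular and venous EC-like cells (n = 12), 30.6 ± 20.9 CPM in glomerular EC-like cells (n = 16), 24.8 ± 16.4 CPM in arterial EC-like cells (n = 14) and 22.0 ± 10.3 CPM in smooth muscle and renin-like cells (n = 16). It was lowest in IC-A-like cells, 4.05 ± 2.91 CPM, which stood below all kept cells in 16 of 16 libraries, while glomerular EC-like cells stood above in 15 of 16. Npas2 was highest in smooth muscle and renin-like cells, 7.46 ± 5.56 CPM, and had 0 of 1926794 UMIs in peritubular and venous EC-like cells, which allows a level of up to 1.56 CPM (counting error only). The neighbours in the order of either activator did not differ beyond their SDs.

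**Figure D4:**
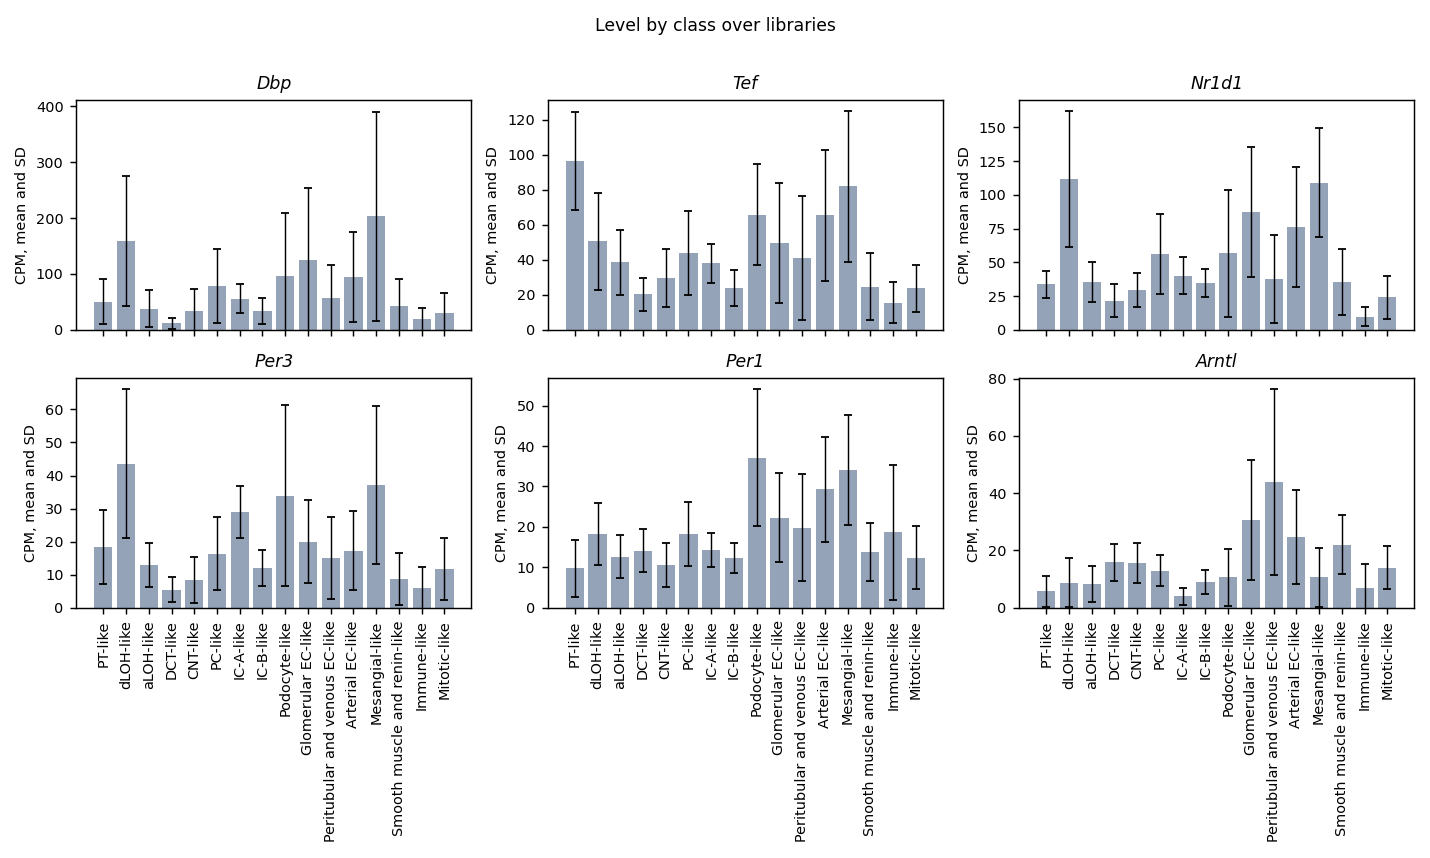
Each panel plots 1 of 6 clock genes, with the mean CPM of each cell class as a bar from 0 and the SD over its libraries as a line, drawn only down to 0. Dbp is highest in mesangial-like cells at 203 ± 187 CPM, the highest means of Arntl and Per1 are in peritubular and venous EC-like and in podocyte-like cells, and the SD lines of most classes overlap.

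Differences between genotypes and ages were tested with edgeR's quasi-likelihood test on the summed counts, 1 fit per class, with Benjamini-Hochberg adjustment over all genes of the class at a 5% false discovery rate. Of the 150 combinations of the 10 members with the 15 classes fitted, 113 passed the filter on low counts: Arntl, Per1, Nr1d1, Nr1d2, Dbp and Tef in 14 classes, Per3 in 13, Per2 in 8, and Npas2 and Ciart in 4 each. Sums of under 10 cells were left out, so the fits of podocyte-like cells (without DN female 6 weeks replicate 1) and mitotic-like cells (without control female 6 weeks replicate 1) held 15 libraries and that of arterial EC-like cells 14 (without control female 12 weeks replicate 2 and DN male 12 weeks replicate 2), and peritubular and venous EC-like cells, with 12, were not fitted. The members share libraries, so their tests are not independent of each other. Libraries that differ only in the compared factor and carry the same sex and replicate number deviated together, and each comparison was also fitted with these pairs as a replicate block. In females the number also separates the shallower from the deeper libraries.

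Between controls at 12 and at 6 weeks, Dbp had higher values at 12 weeks in 14 of 14 classes, with log2 fold changes of 0.86 to 3.72 and a median of 1.78, and an unadjusted p under 0.05 in 8. Arntl had lower values in 14 of 14 classes, from −2.89 to −0.14, with 8 under 0.05. Nr1d1 and Nr1d2 were higher in 14 of 14, Per3 in 13 of 13, Per2 in 8 of 8 and Tef in 13 of 14, whereas Per1 was higher in 5 and lower in 9. Over all kept cells, Tef and Per1 were each higher at 12 weeks in 2 of 4 pairs and lower in 2. Dbp, Nr1d1, Per3 and Per2 were higher in 4 of 4 pairs and Nr1d2 in 3 of 4, and Arntl was lower in 4 of 4. With edgeR 0 of 113 members' tests passed the adjusted threshold, against 0.00211% of all 141966 gene and class tests. At an unadjusted p under 0.05, 52 of 113 (46.0%) passed, against 2.71% of all tests, and DESeq2 called 0 of 113 (0.0218% of all). The number under an unadjusted 0.05 rested in part on single control libraries: it was 25 of 116 without control male 6 weeks replicate 1, 32 of 117 without control male 12 weeks replicate 1 and 34 of 118 without control female 6 weeks replicate 2. The median log2 fold change of the members was 0.74, and the medians of all genes lay between −0.03 and 0.01 over the classes.

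With the replicate block, 5 of the 113 tests passed (0.0169% of all tests), all higher at 12 weeks. Per3 in dLOH-like cells was measured at 33.0, 10.5, 25.4 and 30.0 CPM at 6 weeks and at 70.6, 64.6, 68.7 and 68.1 CPM at 12 weeks, with no overlap. Its log2 fold change was 1.78 ± 0.35 (SE) with edgeR (adjusted p = 0.357), and 1.42 ± 0.23 with the block (adjusted p = 0.026). Dbp in dLOH-like cells was at 330, 46.6, 73.6 and 88.9 CPM at 6 weeks and at 425, 114, 314 and 203 CPM at 12 weeks, groups that overlapped, but each 12 weeks library was above its pair. Dbp and Per3 in podocyte-like cells, and Dbp in smooth muscle and renin-like cells, also passed with the block, with log2 fold changes of 2.86, 2.13 and 2.06. Without the filter on low counts, 43 of 150 tests passed (0.337% of all 267146).

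In DN kidneys, the same comparison of ages gave other values. Dbp was higher at 12 weeks in 11 of 14 classes and lower in 3, from −0.74 to 1.16, Arntl was higher in 3 and lower in 11, and Per1 was lower in 14 of 14, from −0.94 to −0.02. No test passed with edgeR (0 of 113, with 0.0% of all tests), 1 of 113 was under an unadjusted 0.05 (2.65% of all), and DESeq2 called 0 (0.0176% of all), the block 0 (0.0176% of all) and the fit without a filter 0 of 150 (0.186% of all). The median over the members was −0.08. DN male 6 weeks replicate 1 stood apart in the younger group, with Dbp over all kept cells at 130.0 CPM against 10.8 to 28.3 CPM in the other 3. Without that library the tests under an unadjusted 0.05 went from 1 of 113 to 20 of 114, and with the block from 4 of 113 to 22 of 114, so the near absence of such tests in DN rested on 1 library. Leaving out any other library gave 0 to 4 such tests.

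Between DN and control at 12 weeks, Nr1d1 was the member with the most tests under an unadjusted 0.05. Its values were lower in DN in 14 of 14 classes, with log2 fold changes of −1.51 to −0.54 and 9 under 0.05. In PC-like cells, the collecting duct cells that respond to vasopressin, Nr1d1 was at 81.7, 77.5, 108 and 94.2 CPM in controls and at 45.7, 40.8, 21.5 and 29.6 CPM in DN. Each DN value was below each control value there, and the log2 fold change was −1.37 ± 0.35 (adjusted p = 0.13 with edgeR, 0.0105 with the block). DESeq2 gave −1.36 for this gene and class with an adjusted p of 0.0211, its only call among the members. In aLOH-like cells Nr1d1 was at 40.8, 39.9, 48.2 and 67.5 CPM in controls and at 29.6, 23.0, 21.7 and 34.0 CPM in DN, again without overlap. Dbp was lower in 14 of 14 classes (−1.84 to −0.25), Per3 in 13 of 13, Nr1d2 in 13 of 14 and Tef in 12 of 14, while Per1 was higher in 14 of 14 (0.05 to 0.74) and Arntl in 11 of 14. Over all kept cells, Per1 and Arntl were each higher in DN in 2 of 4 pairs and lower in 2. Dbp, Per3 and Nr1d1 were lower in 4 of 4 pairs, and Nr1d2 and Tef in 3 of 4.

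With edgeR 0 of 113 tests passed at 12 weeks (0.358% of all tests), with 18 of 113 (15.9%) under an unadjusted 0.05 against 5.67% of all, and DESeq2 called 1 (0.78% of all). Without DN male 12 weeks replicate 2 the number under 0.05 was 11 of 118. With the block 15 passed (3.06% of all tests), all lower in DN: Nr1d1 in aLOH-, PC-, IC-A-, IC-B-, podocyte- and mesangial-like cells, Dbp in aLOH-, PC-, IC-A-, podocyte- and mesangial-like cells, Nr1d2 in aLOH- and mesangial-like cells, and Per3 in PC- and IC-A-like cells. Dbp in mesangial-like cells, the contractile cells of the glomerulus, was at 635, 279, 522 and 257 CPM in controls and at 273, 94, 244 and 46.3 CPM in DN. The groups overlapped, but each DN library was below its control pair, and the log2 fold change was −1.53 ± 0.43 with the block (adjusted p = 0.0214) and −1.35 ± 0.84 without it (adjusted p = 0.643). Nr1d2 in mesangial-like cells was at 154, 142, 118 and 123 CPM in controls and at 86.9, 77.5, 90.6 and 68.6 CPM in DN, with no overlap and a log2 fold change of −0.68 ± 0.17 with the block (adjusted p = 0.0084). Without the filter on low counts 20 of 150 tests passed (1.02% of all). The comparisons of DN with control at 12 weeks and of controls between ages share the 4 control libraries of 12 weeks.

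At 6 weeks, Per1 was higher in DN than in control in 13 of 14 classes, with log2 fold changes of −0.39 to 1.61 and 7 under an unadjusted 0.05. In dLOH-like cells Per1 was at 5.49, 16.5, 4.97 and 11 CPM in controls and at 28.5, 23.4, 31.7 and 25.3 CPM in DN, with no overlap, and the log2 fold change was 1.61 ± 0.34 (adjusted p = 0.431 with edgeR, 0.0497 with the block). Per3 was higher in 13 of 13 classes, Per2 in 8 of 8, Ciart in 4 of 4 and Tef in 12 of 14, and Arntl was lower in 13 of 14. Dbp was higher in 9 and lower in 5, and Nr1d1 was higher in 7 and lower in 7. The classes of a library come from 1 mouse, so these counts do not count mice. Over all kept cells, Per3, Per2, Ciart, Tef and Arntl were each higher in DN in 2 of 4 pairs and lower in 2. In DN male 6 weeks replicate 1 Arntl was at 2.46 CPM, against 16.8 to 18.8 CPM in the other DN libraries of that age. Per3 was at 36.9 CPM there, against 7.05 to 10.9 CPM. With edgeR 0 of 113 passed (0.0761% of all), 19 of 113 (16.8%) were under an unadjusted 0.05 against 3.73% of all tests, and DESeq2 called 0 (0.252% of all). The number under 0.05 moved with single libraries: it was 11 of 114 without DN male 6 weeks replicate 1, 12 of 116 without control male 6 weeks replicate 1, 33 of 119 without control female 6 weeks replicate 1 and 41 of 120 without DN male 6 weeks replicate 2. With the block 7 passed (1.26% of all), and without the filter 9 of 150 (0.63% of all).

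Among these 7, Nr1d1 in aLOH-like cells was the 1 call that also passed with the block when DN male 6 weeks replicate 1 was left out. It was at 31.8, 40.4, 31.7 and 66.2 CPM in controls and at 18.7, 23.4, 18.0 and 33.8 CPM in DN. The groups overlapped, but each DN library was below its control pair, and the log2 fold change was −0.81 ± 0.13 with the block (adjusted p = 0.0046, and 0.0452 without that library), against an adjusted p of 0.768 with edgeR without the block. The others were Nr1d1 in IC-A-like cells (−0.54), Per1 in dLOH-like cells (1.67), Tef in arterial EC-like cells (1.48) and, in podocyte-like cells, Per3 (2.56), Dbp (2.07) and Arntl (−1.99). The calls in podocyte-like cells rested on 3 pairs at 6 weeks. In podocyte-like cells Dbp was at 13.4, 10.4 and 27.4 CPM in the control libraries with 65 to 71 such cells and at 36.2 CPM in the shallow one with 16, against 14.1, 238 and 8.97 CPM in the 3 DN libraries with at least 10 cells. Without DN male 6 weeks replicate 1, its log2 fold change was −0.54 with edgeR and −0.68 with the block, so the direction of Dbp in podocyte-like cells at 6 weeks rested on 1 library. Without that library all 15 calls at 12 weeks and all 5 calls between the ages in controls, which do not compare it, also passed. With the block in the 12 deeper libraries, 3 of the 7, 9 of the 15 and 4 of the 5 calls also passed.

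The DN effect was lower at 12 than at 6 weeks for Dbp, Nr1d1, Nr1d2 and Tef in 14 of 14 classes each, Per3 in 13 of 13, Per2 in 8 of 8, Per1 in 13 of 14 and Ciart in 4 of 4. It was higher at 12 weeks for Arntl in 13 of 14 classes, with a median difference of 0.84, and for Npas2 in 4 of 4, with a median of 0.99. The median difference over all members' tests was −0.74. The difference did not pass with edgeR in any of the 113 tests (0.0% of all tests), with 21 (18.6%) under an unadjusted 0.05 against 1.35% of all tests. Without DN male 6 weeks replicate 1 it was 5 of 114, and with the block it went from 47 of 113 to 13 of 114 without that library. The number without the block was also 8 of 116 without control male 6 weeks replicate 1, 8 of 117 without control male 12 weeks replicate 1, 11 of 118 without DN male 12 weeks replicate 2 and 12 of 118 without control female 6 weeks replicate 2. It was 43 of 119 without control female 6 weeks replicate 1 and 38 of 120 without DN male 6 weeks replicate 2. DESeq2 called 0 (0.000704% of all), the block called 2 (0.0345% of all) and the fit without a filter 8 of 150 (0.134% of all). The 2 calls with the block were Per3 (−2.93) and Dbp (−3.43) in podocyte-like cells, and neither passed when DN male 6 weeks replicate 1 was left out (−1.86 and −0.69). In the 12 deeper libraries 1 of them, Per3, passed with the block.

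**Figure D5:**
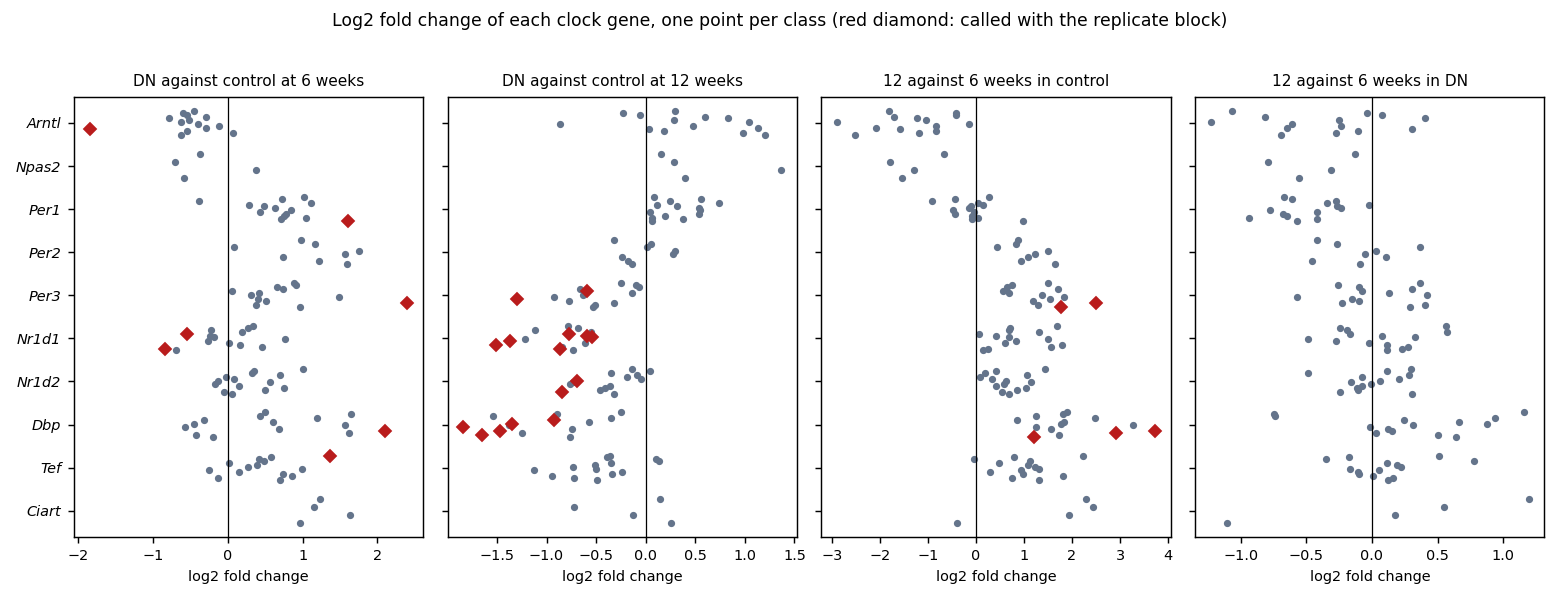
Each panel plots 1 comparison, with the edgeR log2 fold change without the block on the x axis, the clock gene on the y axis and 1 point per cell class that passed the filter on low counts, as a red diamond where the fit with the replicate block called it. Points of Dbp lie between 0.86 and 3.72 for controls at 12 against 6 weeks, and those of Nr1d1 between −1.51 and −0.54 for DN against control at 12 weeks.

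The other genes of the pathway were tested in the same fits. Of 129 tests of 12 other core clock genes (Clock, Cry1, Cry2, Nfil3, Rora, Rorb, Hlf, Bhlhe40, Bhlhe41, Csnk1d, Csnk1e and Timeless), 0 passed with edgeR in any of the 5 comparisons, with 10 and 11 under an unadjusted 0.05 for DN against control at 6 and 12 weeks, 29 and 5 for the ages in control and in DN, and 5 for the difference between them. Their median log2 fold changes lay between −0.08 and 0.10, over genes that moved in both directions. For the ages in control, 61 of the 129 tests were higher at 12 weeks and 68 lower. The 29 under 0.05 in that comparison were 22.5% of the 129, against 2.71% of all tests. With the block, 2 were called higher and 1 lower in DN at 6 weeks, and 2 higher and 5 lower at 12 weeks. Of 168 tests of 14 clock output genes, among them Usp2, Tsc22d3, Nampt and Scnn1a, 0 passed either, with 19, 6, 11, 13 and 2 under 0.05 in the same order and medians between −0.19 and 0.15. With the block the clock outputs had 9 calls higher and 2 lower in DN at 6 weeks, 11 of 168 tests beside the members' 7 of 113, and 3 higher and 4 lower at 12 weeks. Immediate early genes, which rise within minutes of a stimulus, gave 226 tests, of which 3 passed for DN against control at 12 weeks, all higher in DN: Nr4a1 in podocyte-like cells (2.92 ± 0.61), Ier3 in CNT-like cells (1.99 ± 0.44) and Klf6 in mesangial-like cells (0.95 ± 0.18). At 6 weeks Fosl2 in podocyte-like cells passed (1.95 ± 0.40), and between ages in controls Nr4a1 in DCT-like cells (−2.96 ± 0.50, lower at 12 weeks). Of 139 tests of glucocorticoid response genes, 3 passed for DN against control at 12 weeks: Cdkn1a in PT-like cells (3.99 ± 0.68) and IC-B-like cells (1.34 ± 0.21) and Errfi1 in mesangial-like cells (1.45 ± 0.33). Klf9 and Tsc22d3 stand both in this list and among the clock outputs. At an unadjusted p under 0.05, in the order of comparisons above, 26, 52, 34, 23 and 10 of the 226 tests of immediate early genes passed, and 21, 24, 29, 23 and 13 of the 139 tests of glucocorticoid response genes. For DN against control at 12 weeks these were 23.0% and 17.3%, beside 15.9% of the members' tests. With the block, 16 tests of immediate early genes were called higher and 2 lower in DN at 6 weeks, and 38 higher and 5 lower at 12 weeks. Those of glucocorticoid response genes were 10 higher and 1 lower, and 12 higher and 7 lower. Over all tests, the block called 1048 higher and 741 lower in DN at 6 weeks (1.26%), and 2520 higher and 1827 lower at 12 weeks (3.06%). The calls of the glucocorticoid response genes at 12 weeks were split much like those of all tests. Those of the immediate early genes were more often higher in DN, and the members' 15 were all lower. The medians of the immediate early genes lay between −0.26 and 0.25 and those of the glucocorticoid response genes between −0.52 and 0.24. Heat shock genes (118 tests) and red blood cell genes (23 tests) had 0 calls in the 5 comparisons with edgeR, with 4, 8, 3, 12 and 3 and with 4, 12, 3, 5 and 8 tests under 0.05. With the block, heat shock genes had 2 calls higher and 1 lower in DN at 6 weeks and 3 higher and 4 lower at 12 weeks, and red blood cell genes 1 higher and 1 lower and then 0 higher and 8 lower. For the difference between ages with the block, red blood cell genes had 1 call higher and 7 lower. In the comparisons of ages with the block, immediate early and red blood cell genes each had 1 call higher and 1 lower in controls and 1 lower in DN, and the other 4 of these 6 lists had 0. The red blood cell genes, markers of blood left in the tissue, had a median log2 fold change of −2.88 for DN against control at 12 weeks, and their summed level ranged from 94.3 to 674 CPM in controls and from 0.397 to 451 CPM in DN. Their part in the members' differences was not tested.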

How the data were processed

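Droplet-based single-cell RNA-seq was measured in 16 kidney libraries of 1 mouse each. The authors aligned the reads and counted UMIs with Cell Ranger 3.0.2 against mm10, and deposited raw UMI counts per barcode and gene. A first filter retained barcodes that had 200 to 7000 genes and no more than 50% mitochondrial UMIs. They were normalized per cell to 10000 and clustered (2000 variable genes, 30 components, Harmony over libraries, Leiden resolution 1, 56 clusters). Clusters were named from 3 or more markers, and 21 stayed unnamed. In podocyte-, EC-, mesangial-, smooth muscle and renin- and immune-like cells at most 20% mitochondrial counts were allowed. The tubular, mitotic-like and unnamed cells kept the limit of 50% of the first filter. As doublets, 7082 cells with a marker of the opposite lineage were removed, since no caller was run. One further marker and 2 further clock genes are not reported here. Counts were summed per library and class (at least 10 cells).

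edgeR 4.0.16 (TMM, filterByExpr, glmQLFit; R 4.3.3) was fitted per class over the libraries with at least 10 cells (16 in 12 classes, 14 or 15 in the other 3) with age and with sex and genotype within age, and tested on simulated data. DESeq2 1.42.0 was an alternative, as were RLE size factors, no filter on low counts, at least 30 cells per sum, no doublet removal, a 20% mitochondrial limit in every class, the 12 deeper libraries, and leaving out each library. Same-numbered libraries of the same sex deviated together, with correlations of 0.11 to 0.65 in 8 classes, all above 0.1, which is where the pairing of the replicate block comes from. The SEs and p-values without the block measure the spread between mice. Those with the block measure the spread of the differences within pairs, and these pairs were taken from the same data. The members and lists were chosen with earlier results of these data known. All 10 members, the list genes that passed and the 10 genes most like Dbp and Arntl are named.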

Additional observations from a re-analysis of the deposited data

Results flagged for a closer look

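Among 40 groups of 4 libraries (10 members by genotype and age), 7 held a library farther from the others in CPM than Dixon's 95% limit allows. Chance gives about 1 in 20 for independent groups with a normal spread. The members share libraries, so these groups are not independent, and no excess is read from the 7. In 5 of the 7 it was DN male 6 weeks replicate 1 among the DN libraries of 6 weeks. Its Arntl was 2.46 CPM with the nearest library at 16.8 CPM, its Per3 36.9 CPM with the nearest at 10.9 CPM, and its Nr1d2 47.5 CPM with the nearest at 35.8 CPM. Its Dbp was 130.0 CPM with the nearest at 28.3 CPM, and its Tef 82.9 CPM with the nearest at 40.4 CPM. The low activator and the high outputs were thus in the same kidney. In the other 2, Npas2 was 5.70 CPM in DN male 12 weeks replicate 2, with the nearest library at 1.79 CPM, and Ciart was 10.1 CPM in control female 6 weeks replicate 1, with the nearest at 0.859 CPM. That library was 1 of the 4 shallower ones.

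The DN effect differed between the ages in podocyte-like cells with the replicate block, by −2.93 for Per3 and by −3.43 for Dbp on the log2 scale. Neither was called without the block, nor with the block when DN male 6 weeks replicate 1 was left out.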

How the results depend on the processing

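The numbers of members called with edgeR stayed at 0 with RLE size factors, at least 30 cells per sum, no doublet removal and the 20% mitochondrial limit in all 5 comparisons. The other alternatives gave more calls, and the cause was not tested. Without a filter on low counts there were 9 calls for DN against control at 6 weeks, 20 at 12 weeks, 43 for the ages in controls and 8 for the difference between ages. The replicate block gave 7, 15, 5 and 2 calls in the same order and 0 for the ages in DN. DESeq2 gave 1 at 12 weeks. The 12 deeper libraries gave 1 at 6 weeks, beside 212 calls over all genes and classes. A further pair of alternatives was chosen after seeing the data: the block without DN male 6 weeks replicate 1 gave 4, 23, 10 and 0 calls, and the block with the 12 deeper libraries gave 10, 10, 10 and 2. Each of these counts is of 114 tests of members in the first and of 121 in the second. Over all genes and classes, in the same order, the first gave 1043, 4846, 69 and 40 calls and the second 1441, 3003, 33 and 24. Leaving out each library in turn gave 0 to 1 calls for DN against control at 12 weeks (1 without control female 6 weeks replicate 2) and 0 to 1 for the ages in controls (1 without control female 6 weeks replicate 1 or control male 6 weeks replicate 2), and 0 elsewhere. Over all genes and classes, the fits with such a call gave 651 calls at 12 weeks, and 1 and 6 for the ages in controls. Dbp in podocyte-like cells at 6 weeks turned from 2.10 to −0.54 without DN male 6 weeks replicate 1, and to −0.68 with the block, and ranged up to 2.74 leaving out each library. The median library share of the members was 48.0%, 38.0% with a pseudocount of 0.1 CPM, 53.7% with at least 30 cells, 54.7% in the 12 deeper libraries, and 46.4% to 51.0% leaving out each library. The median of all genes moved too, and was 26.5%, 23.0%, 34.9% and 19.6% in the first 4 of these. These settings covered 12, 12, 10 and 14 classes. Per1 went from 32.9% to 55.0% in the 12 deeper libraries. Of the 29 single calls with the block, 22 were also called without a filter on low counts, 17 with the block in the 12 deeper libraries and 1 with DESeq2. With the block without DN male 6 weeks replicate 1, 21 were also called. Of these, 15 were for DN against control at 12 weeks and 5 for the ages in controls, comparisons that do not hold that library. In the comparisons that hold it, 1 of 7 calls at 6 weeks and 0 of 2 for the difference between ages were kept. Npas2 and Ciart had means of 2.78 and 2.42 CPM over the 192 sums and passed the low-count filter in 4 classes each.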
